A study of Mus musculus with 57 samples.

Results

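The strongest H3K27ac domains of the gastrocnemius are the 500 autosomal regions that held the most H3K27ac reads in this muscle. Overlapping H3K27ac peaks of the 10 gastrocnemius libraries were merged on chromosomes 1 to 19, which gave 45630 regions, and 20120 of these had a peak in all 10 libraries. Reads in each region were expressed as reads per 1000000 (RPM) of that library's autosomal peak reads, averaged over the 10 libraries, and the 500 highest regions were kept. The domains were thus chosen by their gastrocnemius H3K27ac reads, so their H3K27ac values are given as a description with no test. H3K4me3 and H3K27me3, which the choice did not use, were tested.

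The series compared histone H3 marks in 2 tissues of the PSAPP mouse, an Alzheimer's disease model that carries transgenes for mutant amyloid precursor protein and presenilin. Each of the 57 ChIP-seq libraries is 1 mark in 1 tissue of 1 mouse: H3K4me3, H3K27ac or H3K27me3, with 10 gastrocnemius and 9 brain cortex libraries per mark. All mice were labelled PSAPP and 13 months old with no treatment named, and their genotypes were not checked here. None was labelled wild type, so nothing below separates the transgenes from normal muscle. The promoters that drive the transgenes are not given in the sources used here. The 10 mice gave the gastrocnemius and 9 of them also the cortex. Males and females were used, but the labels of the samples do not say which, so the sexes were not compared.

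H3K27ac marks active promoters and enhancers, and long stretches of it, often called super-enhancers, lie over genes that define a cell's identity. H3K4me3 marks promoters that are active or ready to be used, while H3K27me3 is laid down by the Polycomb complex over genes that are kept silent. The gastrocnemius is a calf muscle made mostly of fast fibres, which contract on calcium release and draw on glycogen and phosphocreatine.

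Reads in autosomal peaks numbered 15585403 to 27042958 per H3K27ac library in the gastrocnemius and 3903965 to 20972632 in the cortex. H3K4me3 libraries had 9025744 to 14768754 and 9323803 to 18622389 reads, and H3K27me3 libraries 2994110 to 18236388 and 3901516 to 6347106. The tissue labels were checked at lineage genes: all 15 fast fibre genes checked had an H3K27ac peak at a transcription start site (TSS) in all 10 gastrocnemius libraries (55.5% of all genes did), and all 13 autosomal cortical neuron markers had one in all 9 cortex libraries (57.0% of all genes). Of those neuron markers, 3 had a peak in every gastrocnemius library and 6 had none in any. Of the fast fibre genes, 6 had a peak in every cortex library and 5 had none in any. A mouse stood apart at the domain of Prnp (rank 297), where its libraries (gastrocnemius replicate 6 and cortex replicate 5) were the lowest for all 3 marks in both tissues. Its gastrocnemius library was also the lowest of the 10 at the domain of rank 9 (926 RPM of H3K27ac, against 1071 to 1228 RPM). The share differences and the counts of sites called are also given without this mouse in the account of the Prnp domain.

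The domains covered the promoters of many genes of the fast fibre, and stretches of these promoters are shown because they lie at genes with large H3K4me3 differences between the tissues. Each line holds the 250 bases before the TSS of a contractile, calcium-handling, or glycolysis and creatine gene inside a domain, taken from RefSeq for GRCm38 (mm10) and written 5′ to 3′ on the gene's strand, with motif matches in capitals. The genes are those of the muscle lists with the largest gain of H3K4me3 whose window held a match. Ldb3, a Z-disc protein, lies in the domain of rank 352 (chr14:34588682-34588931, minus strand, CArG match starting 35 bases before the TSS). Mybpc2, fast myosin-binding protein C, lies in rank 396 (chr7:44524670-44524919, minus strand, MCAT match 63 bases before the TSS). Tpm2, a tropomyosin, lies in rank 197 (chr4:43523555-43523804, minus strand, E-box 227 bases before the TSS). Ckm, muscle creatine kinase, lies in rank 314 (chr7:19410844-19411093, plus strand, with its E-box at the far end of the window, 249 bases before the TSS). Atp2a1, the calcium pump of the fast fibre reticulum, lies in rank 218 (chr7:126463074-126463323, minus strand, E-box 55 bases before the TSS). Pygm, muscle glycogen phosphorylase, lies in rank 198 (chr19:6384158-6384407, plus strand, E-boxes 168 and 8 bases before the TSS).
Ldb3: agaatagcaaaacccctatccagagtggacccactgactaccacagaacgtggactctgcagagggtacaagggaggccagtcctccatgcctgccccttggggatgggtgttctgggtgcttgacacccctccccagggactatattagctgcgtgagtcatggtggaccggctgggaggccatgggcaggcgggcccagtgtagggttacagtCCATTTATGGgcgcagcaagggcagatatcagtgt
Mybpc2: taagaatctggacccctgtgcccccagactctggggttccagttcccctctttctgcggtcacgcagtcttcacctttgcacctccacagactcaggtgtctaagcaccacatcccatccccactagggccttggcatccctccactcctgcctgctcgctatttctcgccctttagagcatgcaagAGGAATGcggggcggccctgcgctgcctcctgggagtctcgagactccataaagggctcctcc
Tpm2: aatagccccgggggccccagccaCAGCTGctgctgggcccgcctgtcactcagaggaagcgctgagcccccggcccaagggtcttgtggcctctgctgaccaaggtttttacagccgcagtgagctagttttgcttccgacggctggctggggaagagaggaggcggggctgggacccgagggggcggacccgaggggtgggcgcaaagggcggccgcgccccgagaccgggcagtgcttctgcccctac
Ckm: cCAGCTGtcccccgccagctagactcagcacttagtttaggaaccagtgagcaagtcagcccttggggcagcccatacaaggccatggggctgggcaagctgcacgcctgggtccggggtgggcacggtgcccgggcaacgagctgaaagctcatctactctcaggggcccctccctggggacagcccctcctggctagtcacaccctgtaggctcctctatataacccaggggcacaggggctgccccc
Atp2a1: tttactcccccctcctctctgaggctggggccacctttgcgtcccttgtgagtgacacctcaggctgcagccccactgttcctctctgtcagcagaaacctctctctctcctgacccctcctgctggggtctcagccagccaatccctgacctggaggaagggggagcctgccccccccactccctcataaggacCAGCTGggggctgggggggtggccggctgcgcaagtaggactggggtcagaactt
Pygm: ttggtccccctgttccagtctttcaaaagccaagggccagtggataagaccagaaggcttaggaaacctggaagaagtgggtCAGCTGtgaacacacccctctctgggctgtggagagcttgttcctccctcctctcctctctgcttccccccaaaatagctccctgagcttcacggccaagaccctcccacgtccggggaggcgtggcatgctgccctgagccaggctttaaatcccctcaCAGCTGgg

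Matches were counted on both strands in 300-base windows, from 250 bases before to 50 after each RefSeq TSS, for 31396 windows of autosomal genes and 2594 windows inside the domains. The E-box CAGCTG, which myogenic factors of the MyoD family bind, was in 18.2% of the windows in the domains and in 16.3% of all windows. Among contractile, sarcomere and calcium-handling genes it was in 13 of the 24 windows inside domains (54.2%) and in 13 of the 41 windows of the same lists outside them (31.7%). The MEF2 motif, the motif of the MEF2 muscle factors, went the other way, with 3 of 24 windows inside and 10 of 41 outside, against 3.10% of all 300-base windows. The MCAT motif CATTCCT, bound by TEAD factors, was in 8.33% and 12.2% of these muscle windows and in 5.41% of all. The CArG box, bound by serum response factor, was in 8.33% and 9.76%, against 1.57% of all. The motif TCAAGGTCA of the oestrogen-related receptors was in none of the 24 windows, in 2.44% of the muscle windows outside and in 0.417% of all. A match is a description of these letters and not a bound site. Windows in the domains had a median GC content of 59.3%, against 53.0% for all windows, and 53.2% of them were CpG-rich (observed to expected CpG over 0.6), against 36.4% of all. Of the muscle windows, 3 of 24 in domains and 9 of 41 outside them (22.0%) were CpG-rich.

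The domains also held 142 of 966 autosomal microRNA genes with a mature RefSeq sequence (14.7%), spread over 110 domains, and 8 seeds (bases 2 to 8) recurred in at least 2 domains. The families shown here were picked after their values were seen, for recurring at domains described in the text, and have their seeds in capitals. miR-196a lies in the Hoxc domain (rank 111) and miR-196b in the Hoxa domain (rank 139), the domains with the highest H3K27ac in muscle relative to cortex. let-7b and let-7c lie beside Ppara (rank 38), the fatty acid oxidation receptor, and let-7g lies in the domain of Wdr82 and Alas1 (rank 481). miR-24 and the miR-27 pair occur in the clusters of ranks 94 and 158.
mmu-miR-196a-5p: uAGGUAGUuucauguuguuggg
mmu-miR-196b-5p: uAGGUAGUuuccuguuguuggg
mmu-let-7b-5p: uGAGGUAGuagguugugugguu
mmu-let-7c-5p: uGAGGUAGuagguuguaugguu
mmu-let-7g-5p: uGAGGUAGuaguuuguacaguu
mmu-miR-24-3p: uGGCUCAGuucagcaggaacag
mmu-miR-27b-3p: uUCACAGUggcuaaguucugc
mmu-miR-27a-3p: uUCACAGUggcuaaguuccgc
These are genomic positions of the genes. MicroRNA levels were not measured.

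The domains were long, and most held a TSS. They spanned 66.8 Mb, 2.71% of the autosomes, with a median width of 120.4 kb (interquartile range 98.6 to 155.9 kb), against 76.9 kb for the next 500 regions and 11.8 kb for all 19620 other regions. Since reads were summed over a region, width was part of the choice: per kb, the domains held a median of 3.40 RPM, and the other regions 1.65. Chromosome 11 held the most domains, 68, and chromosome 13 the fewest, 7. A TSS lay in 486 domains, 102 domains held the TSS of 1 gene only, and 39 held more than 10 genes, up to 26. Together they held 2246 of 24963 autosomal genes (8.997%). Only 14 domains (2.8%) had no TSS, against 7.8% of the next 500 regions and 52.6% of all other regions. Their GC content had a median of 48.8%, against 45.5% in the other regions, while 23.1% and 21.7% of bases were repeat-masked.

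**Figure D1:**
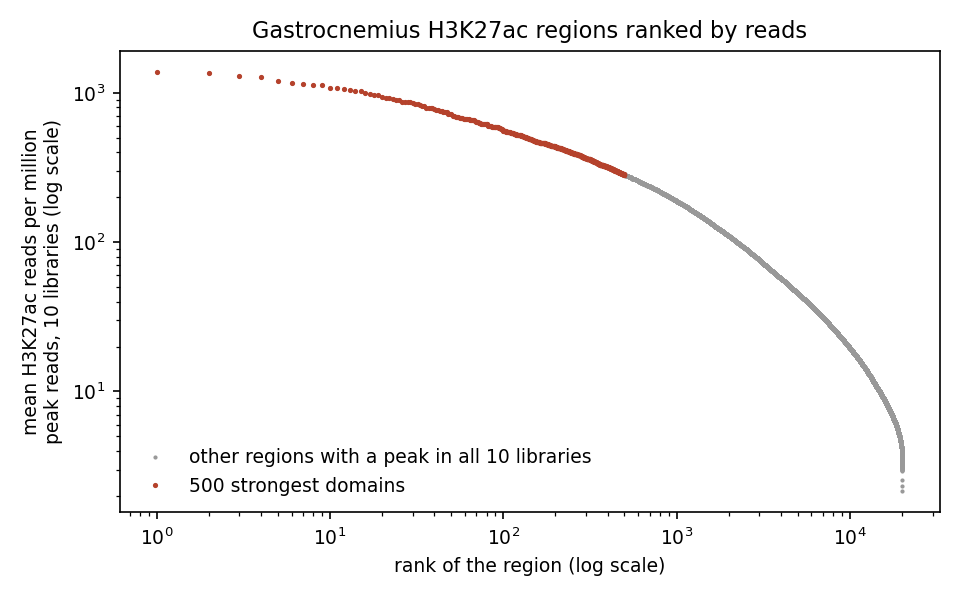
All 20120 gastrocnemius H3K27ac regions with a peak in all 10 libraries, ordered by rank (x axis, log scale), with mean reads per 1000000 peak reads over 10 libraries on the y axis (log scale). The 500 domains run from 1385 at rank 1 to 282.2 at rank 500, and the curve passes the boundary without a step.

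Mean H3K27ac fell 4.91-fold from 1385 RPM at rank 1 to 282.2 RPM at rank 500, with 558.8 RPM at rank 100 and 396.2 RPM at rank 250. No gap marked the boundary. Just inside it lay Pdzrn3 (283.2 RPM) and the domain of Nrap (rank 500, 282.2 RPM), and just outside it the regions of Uhrf1 (282.1 RPM) and Sdhb (281.9 RPM). Familiar contractile and sarcomere genes fell on both sides: Nrap, a sarcomere assembly protein, was the last member, whereas Acta1 (skeletal alpha-actin, rank 540) and Actn3 (fast alpha-actinin) were not members.

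The 15 strongest domains all had a mean over 1000 RPM. The strongest (chr17:26362601-26730800) held Dusp1, a phosphatase that switches off stress kinases, with Neurl1b, Ergic1, Atp6v0e and Crebrf. Its H3K27ac was 1322 RPM in the lowest, 1375 in the median and 1505 in the highest gastrocnemius library, and 976, 1040 and 1170 RPM in the cortex. The 10 muscles lay close together and above all 9 cortexes. The second (chr10:79864601-80210400) held 24 genes from Plppr3 to Efna2, among them the tumour suppressor kinase Stk11 and the lipid peroxide reducer Gpx4. Its values of 1238, 1341 and 1492 RPM in the muscle overlapped the 1248, 1425 and 1504 RPM of the cortex.

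The fourth domain (chr9:48632801-48841400) lay over Zbtb16, a transcription factor induced by glucocorticoids, and spread widely: 845 RPM in the lowest, 1231 in the median and 1788 in the highest muscle, against 299.9, 675 and 1039 RPM in the cortex. The tissues overlapped here, and the values spread widely in both. The fifth (chr1:73899401-74116000) lay inside Tns1, an adhesion protein, and held no TSS. It had 946, 1160 and 1434 RPM in the muscle and 331.6, 380.3 and 423.2 RPM in the cortex, with no overlap. The other domains of the first 9 held Irf2bp2 and Tomm20 (rank 3), Ltbp3 and Map3k11 (rank 6), the splicing factor Srsf1 (rank 7), the RNA-binding protein Msi2 (rank 8) and Notch1 with Egfl7 (rank 9).

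The twelfth domain (chr7:142333201-142615400) held the fast troponin genes Tnni2 and Tnnt3, which give fast fibres their calcium switch, with Syt8, Lsp1, Ctsd, Ifitm10 and Mrpl23. Its H3K27ac was 906 RPM in the lowest, 1031 in the median and 1213 in the highest muscle and 257.3, 279.2 and 322.2 RPM in the cortex. Its lowest muscle was thus well above its highest cortex. Around it in the order stood the domains of Myoz3, a Z-disc calsarcin (rank 11), of Cs, Myl6 and Erbb3 (rank 13), of Rgma and Chd2 (rank 14), and of Gnai2 (rank 15). Of these 15 domains, 10 also overlapped one of the 500 domains that the same rule gave in the cortex.

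**Figure D2:**
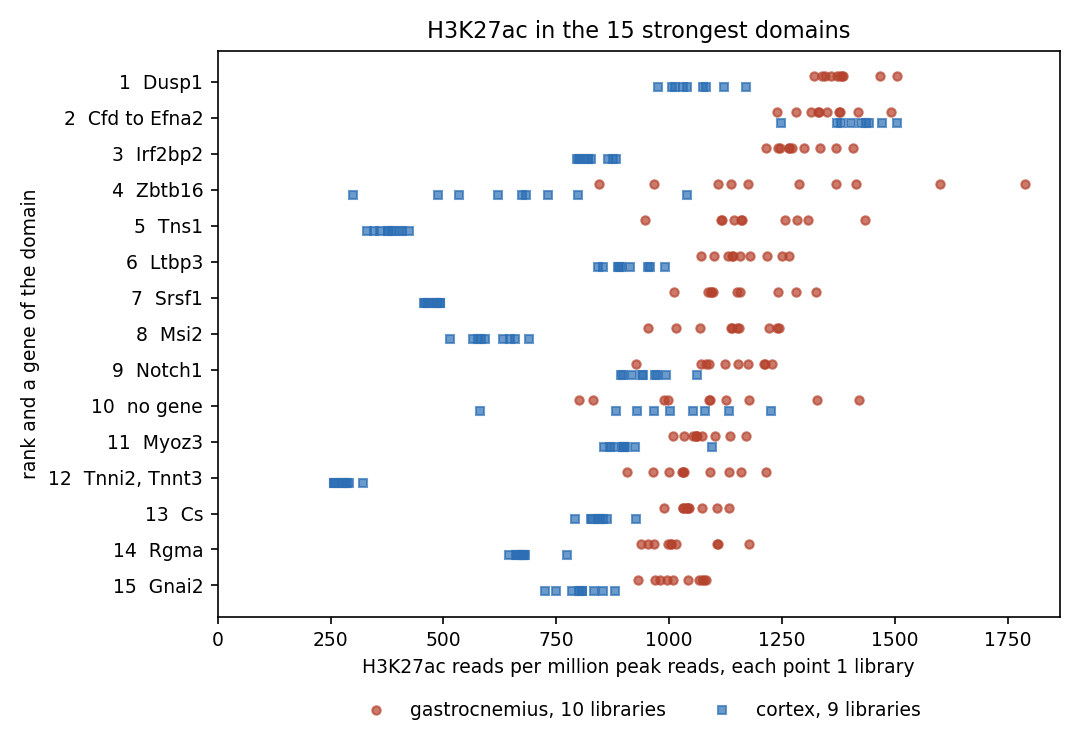
H3K27ac of the 15 strongest domains (rank and a gene on the y axis) in reads per 1000000 peak reads (x axis), 1 point per library, circles for 10 gastrocnemius and squares for 9 cortex libraries. Tnni2 and Tnnt3 (906 to 1213 against 257.3 to 322.2) and Tns1 show wide gaps between tissues. The domain labelled Cfd to Efna2 (Plppr3 to Efna2 in the text) and the short domain of rank 10 overlap.

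Genes of the fast fibre, the sarcomere and glycolysis were frequent in the domains. The lists were written with earlier results of these data known, and the values that chose the domains also decide these counts, so they are descriptions beside the 8.997% of all genes. Of 15 fast fibre genes, 7 had a TSS in a domain (46.7%): Tnnt3, Tnni2, Tpm2, Mybpc2, Mylk4, Tpm1 and Mylpf. None had one in the cortex domains, which held 5.99% of all genes. Cortex H3K27ac was not low in all of their domains. The cortex mean ran from 56.3 RPM (Mylk4, 318.2 RPM in muscle) to 307.7 RPM (Mybpc2, 320.2 RPM in muscle). Mylpf had 298.6 RPM in cortex and 290.9 RPM in muscle. Slow fibre genes had 2 of 10, Tnni1 (rank 462) and Tnnc1 (rank 324). The sarcomere and Z-disc list had 11 of 30 (36.7%), among them Myoz3 (rank 11), Myoz1 and Synpo2l (rank 22, 921 ± 56.9 RPM, SD, n = 10), and Des (desmin, rank 79). The calcium and excitation list had 7 of 21 (33.3%), from Jsrp1 (rank 25) and Pln (rank 136) to the sodium channel Scn4a (rank 400) and the junction protein Jph2 (rank 273).

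Glycolysis and creatine genes had 9 of 19 on the autosomes (47.4%), with the adenylate kinase Ak1 (rank 28, 865 ± 45.2 RPM) and the glycogen synthase Gys1 (rank 62) first, and 6 of 19 in the cortex domains. Oxidative and mitochondrial genes had 5 of 24 (20.8%), led by the citrate synthase Cs (rank 13) and myoglobin Mb (rank 24, 893 ± 48.4 RPM). Of 26 myogenic transcription factors, 5 were in domains, including Mef2d (rank 135), Mef2c (rank 155) and Nfia (rank 145), and the atrophy and growth list had 6 of 24, including Klf15 (rank 413) and Foxo3 (rank 365). The clock list had 5 of 18 in both tissues' domains, with Tef (rank 21), Nr1d1 (rank 33) and Per1 (rank 35) as the strongest. The insulin list had 3 of 13, Tbc1d1 (rank 117), the glucose transporter Slc2a4 (rank 300) and Lpin1 (rank 372), the dystrophy list 3 of 18, and the junction list 2 of 14 (Chrne and Rapsn).

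Markers of other cell types stood beside the 8.997% of all genes as follows. Fibroblast and matrix genes had 3 of 13 in domains (23.1%, Col4a1, Sparc and Col1a1), endothelial genes 1 of 12 (8.33%, Egfl7), adipocyte genes 1 of 9 (11.1%, Cfd) and leukocyte genes 1 of 10 (10%, Spi1), while satellite cell genes had 0 of 10, Schwann cell genes 0 of 6 and glial genes 0 of 10. Cfd, Egfl7, Spi1 and the only neuronal marker, Slc17a7 (rank 30), each shared a domain with other genes. Widely expressed genes had 3 of 15, Eef2 (rank 23), Actb (rank 392) and a ribosomal protein gene.

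Between the 10 muscles the H3K27ac of the domains varied little. The coefficient of variation had a median of 6.81%, from 2.36% to 34.6%, and 16 domains were over 15%. The median was 7.72% for the next 500 regions and 18.3% for all other regions, which held fewer reads. The steadiest domains were those of Mprip and Pld6 (rank 285, 2.36%, 354.7 to 387.5 RPM), of the Pcdhgc genes with Hdac3 (rank 156), of Rapsn and Spi1 (rank 391), of Ccnd3 (rank 442) and of Relb and Clptm1 (rank 160). The most variable were those of Prnp (rank 297), of Mylk4 and Wrnip1 (rank 403, 24.9%), the domains of ranks 395 and 205, which have no TSS, and Zbtb16 (rank 4, 22.5%). Mylk4, a myosin light chain kinase of fast muscle, had 203.5, 307.6 and 458.0 RPM in the lowest, median and highest muscle. Libraries differed in how often they were at an extreme: replicates 5 and 6 were the lowest in 141 and 149 domains, and replicates 7 and 8 the highest in 157 and 121.

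Many of these domains were also strong in the cortex. By the same rule, 203 of the 500 domains (40.6%) overlapped a cortex domain, as did 228 of the 500 cortex domains (45.6%). An H3K27ac peak was present in all 9 cortexes in 497 domains (99.4%). The share was 97.6% of the next 500 regions and 67.3% of all other regions, both narrower than the domains. This count thus hardly sets the domains apart from the next 500 regions. The gastrocnemius mean was a median of 1.42 times the cortex mean, over 2 times in 126 domains (25.2%, against 27.4% of the 17478 other regions with a cortex peak), over 8 times in 16 (3.2%, against 7.59%) and below the cortex in 79 (15.8%, against 38.1%). The libraries of the tissues did not overlap in 333 domains. All muscles were above all cortexes in 308 (61.6%, against 36.3% of all 20120 regions) and below in 25 (5%, against 12.8%). Because the domains were chosen for high muscle H3K27ac, the direction of these counts carries no test.

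The Hox clusters, which keep the positional identity of limb cells and are silent in the forebrain, were the widest gaps. The Hoxc domain (rank 111, chr15:102938401-103063600, Hoxc4 to Hoxc11) had 489, 528 and 605 RPM in the lowest, median and highest muscle and 0, 2.34 and 4.55 RPM in the cortex. The Hoxa domain (rank 139, chr6:52154001-52264000) had 451, 489 and 544 RPM against 0, 3.63 and 4.36 RPM. The means differed 277-fold and 154-fold, though the cortex values are near 0 and lack reads outside peaks. Jph2, which ties the calcium store to the surface membrane, followed (rank 273, 41.8-fold), then Cped1 (rank 213, 22.4-fold) and the domain of Scn4a, Gh and Cd79b (rank 400, 21.4-fold). At the other end stood the domains of Aatk (rank 188, 0.588 times the cortex mean), Pkd1 and Mlst8 (rank 202, 0.636), Asb6 (rank 99, 0.642), Zmynd8 (rank 181, 0.656) and Prex1 (rank 315, 0.665). Of the domains without a TSS, that within Tead1, a muscle TEAD factor (rank 77, chr7:112715801-112902400), had 523 to 729 RPM in the muscle and 56.2 to 98.2 RPM in the cortex. A domain in Tcf4 (rank 50) was another.

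**Figure D3:**
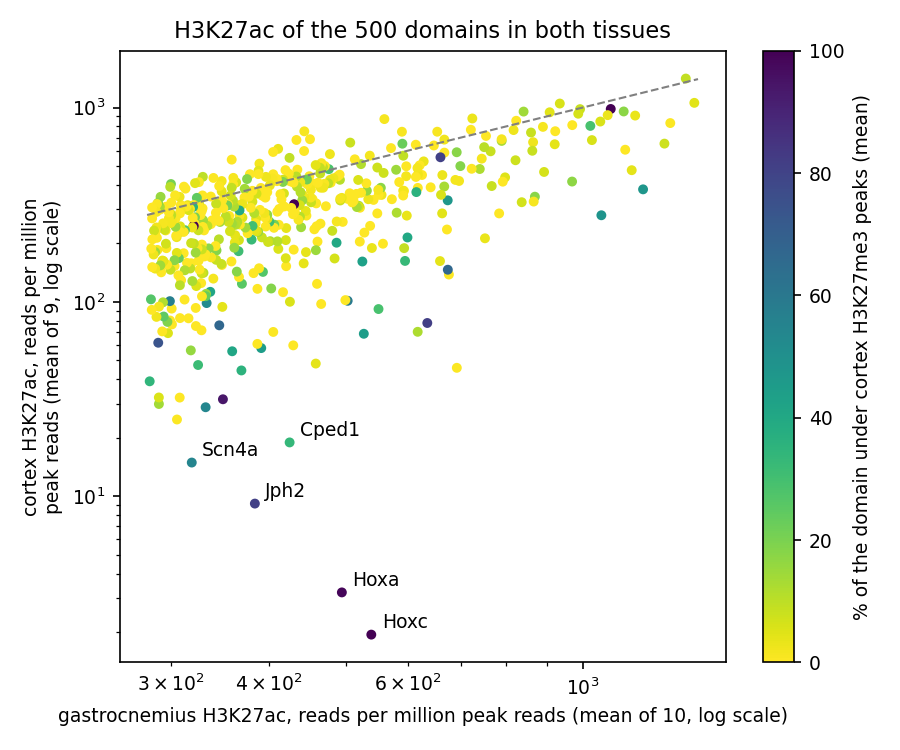
Mean H3K27ac of each of the 500 domains in the gastrocnemius (x axis, 10 libraries) and the cortex (y axis, 9 libraries), in reads per 1000000 peak reads on log scales, coloured by the percent of the domain under cortex H3K27me3 peaks. The dashed line marks equal values, and the 5 domains farthest under it, from Hoxc (277-fold) to Scn4a (21.4-fold), are named.

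The domains held more of the muscle's H3K4me3 and less of its H3K27me3 than of the cortex's. The share of all autosomal H3K4me3 peak reads that fell in the domains was 17.3% in the lowest, 17.9% in the median and 19.7% in the highest gastrocnemius library, and 13.3%, 13.5% and 13.7% in the cortex. Every muscle was above every cortex. The means were 18.2% ± 0.881 (SD, n = 10) and 13.5% ± 0.107 (SD, n = 9), a difference of 4.67 percentage points (two-sided exact permutation test, p = 1.08e-05, the smallest that 92378 relabellings allow, adjusted p over the 2 marks 2.17e-05). The H3K27me3 share was 1.36%, 2.30% and 3.14% in the muscle and 3.19%, 3.86% and 4.44% in the cortex. The highest muscle was just under the lowest cortex. The means were 2.46% ± 0.567 (n = 10) and 3.805% ± 0.404 (n = 9), a difference of -1.35 points (exact permutation p = 2.17e-05, adjusted p = 2.17e-05). With the 500 regions that had the most reads per kb in place of the domains, it was -0.50 points (exact permutation p = 0.1001), and that of H3K4me3 was 2.83 points (exact permutation p = 1.08e-05). Without the 5 domains of very high H3K27me3 described below, the mean H3K27me3 share was 0.870% in the muscle and 2.27% in the cortex.

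The covered length moved with these shares. H3K4me3 peaks covered 17.999 ± 3.75 Mb of the domains in the muscle and 7.81 ± 0.690 Mb in the cortex, with 135 and 212.3 reads per covered kb. H3K27me3 peaks covered 2.27 ± 0.654 Mb and 5.42 ± 0.577 Mb, with 62.6 and 35.7 reads per covered kb. These reads per covered kb were not scaled to library depth and include the 5 domains of very high H3K27me3. They were not computed without those 5, so they are not read as a difference between the tissues. In bulk tissue a mark in fewer cells and less of it per cell cannot be told apart. Where deposited library names carry no S-number, the differences were 4.75 and -1.03 points (exact permutation p = 0.000583 and 0.00291), and among the 4 gastrocnemius and 2 cortex libraries per mark with an S-number, a split used after seeing the data, they were 4.59 and -1.78 points, where p cannot go below 0.0667. For comparison, the H3K27ac share, which the choice of domains fixed in the muscle, was 23.0% ± 0.854 in the gastrocnemius and 16.1% ± 0.631 in the cortex.

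**Figure D4:**
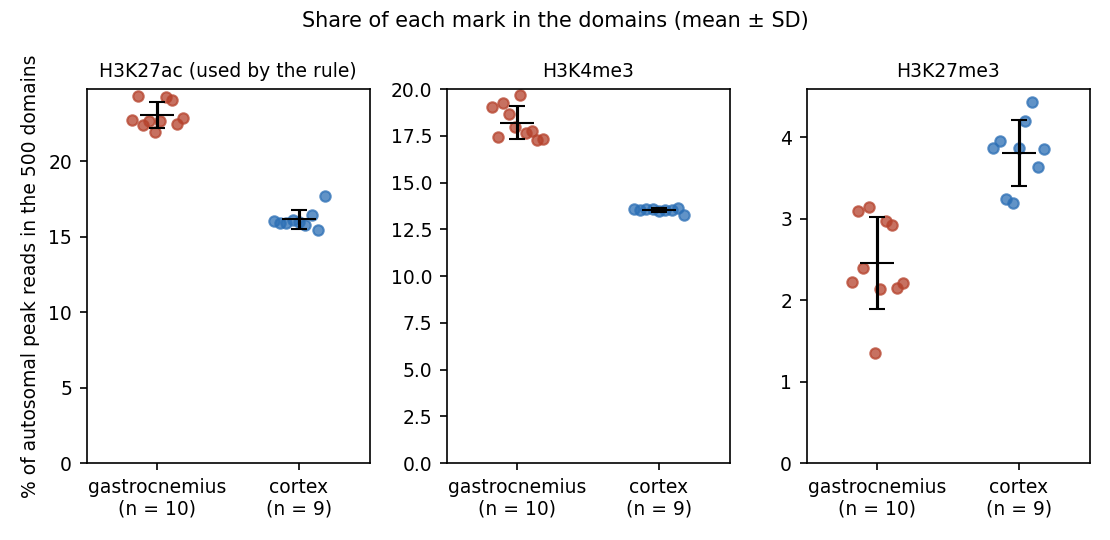
Share of autosomal peak reads in the 500 domains (y axis, %) for H3K27ac, H3K4me3 and H3K27me3, 1 point per library, with mean and SD for 10 gastrocnemius and 9 cortex libraries. H3K4me3 shares lie between 17.3% and 19.7% in muscle and 13.3% and 13.7% in cortex, and H3K27me3 shares run the other way.

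H3K4me3 sites inside the domains were more often higher in muscle than sites elsewhere. H3K4me3 peaks of all 19 libraries were merged, and the 13611 sites with a peak in every library were tested with edgeR's quasi-likelihood test (Benjamini-Hochberg FDR under 0.1 over all sites). In all, 39% of sites were higher and 40.7% lower in the gastrocnemius. Of the 1475 sites in domains, 851 (57.7%) were higher, in 421 domains, and 375 (25.4%) lower, in 254 domains. The median log2 difference, gastrocnemius minus cortex, was 0.18 in the domains and -0.00 over all sites. Counts were scaled by TMM, which takes most sites as unchanged. The value near 0 over all sites thus follows largely from the scaling and serves only as a reference. Over 2-fold differences were found at 269 sites in the domains (18.2%, against 8.46% of all sites) in the direction of muscle and at 49 (3.32%, against 10.01%) in that of cortex. Of the 487 domains with a tested site, 204 held sites that moved in both directions.

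The widest gains were at muscle and Hox genes. An intronic site of Pde4dip, the Golgi and centrosome protein myomegalin (chr3:97791801-97828000), had 154, 204 and 344 counts per 1000000 (CPM) in the lowest, median and highest muscle and 4.47, 5.36 and 7.43 CPM in the cortex, a log2 difference of 5.21 (SE 0.17, edgeR adjusted p = 2.33e-18). No library overlapped. The site over Hoxa3 to Hoxa10 (chr6:52200001-52242200) had 683 to 893 CPM in muscle and 13.4 to 32.1 CPM in cortex, with a log2 difference of 4.97 (SE 0.12, edgeR adjusted p = 1.12e-20). A site at Stat5b, the growth hormone signal transducer (chr11:100804001-100835400), followed with 4.91 (SE 0.19). Sites that lost most relative to cortex were at Camkv, a vesicle kinase-like protein of neurons (log2 difference -3.40, SE 0.12, 6.66 to 15.7 against 81.1 to 115 CPM), Tmcc1 (-2.94, SE 0.18), Csdc2 (-2.93, SE 0.07), the potassium channel Kcnj9 (-2.92, SE 0.13) and Mrtfa (-2.86, SE 0.13), although the domains around them were among the strongest of muscle. For Stat5b and these 5 sites the edgeR adjusted p lay between 5.33e-21 and 5.64e-13.

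Most tested genes of the contraction lists were higher in muscle, and the list counts here and below stand beside the 39% of all sites and 57.7% of sites in domains that were higher. At its strongest TSS site tested, each of the 4 fast fibre genes with a testable site was higher: Mybpc2 by 2.65 on the log2 scale (95.0 ± 37.0 against 14.9 ± 2.75 CPM), Tpm2 by 2.43, Tpm1 by 0.66 and Mylpf by 0.28 (edgeR adjusted p from 3.18e-18 to 0.000181). Their median of 1.55 stands beside -0.00 over all sites, a reference set largely by the scaling of the counts. Of 9 sarcomere genes 8 were higher, including Ldb3 by 3.57 (180 ± 38.5 against 14.98 ± 3.76 CPM), Tmod4 by 1.81, Des by 1.13, and Synpo2l with Myoz1, which share a site, by 1.00. The exception was Tmod1, a capper of actin filaments also used outside muscle, which was lower (-0.37, edgeR adjusted p = 1.84e-05). Atp2a1 was higher by 1.83 (348 ± 82.5 against 97.5 ± 5.14 CPM), while Cacnb1, a calcium channel subunit, was lower by a small margin (-0.24, SE 0.03).

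All 9 glycolysis and creatine genes were higher, from Ckm by 2.34 (156 ± 47.0 against 30.7 ± 3.04 CPM), Pygm by 1.53, Pfkm by 1.49 and Ak1 by 1.29 to Gapdh by 0.16, with a median of 0.62. The 4 oxidative genes tested were higher by less: Cs by 0.36, Ppargc1b by 0.29, Esrra by 0.22 and Pdk2 by 0.08 (edgeR adjusted p = 0.057). Pdk2 did not pass with an uncalled peak as 0 reads at sites with a peak in at least 9 libraries (edgeR adjusted p = 0.41). In the insulin list Slc2a4, the insulin-regulated glucose carrier, was higher by 2.43, Tbc1d1 by 0.73 and Lpin1 by 0.13 (edgeR adjusted p = 0.0498). Lpin1 did not pass under that alternative, over the libraries with no S-number in their names, or without the mouse lowest at Prnp (edgeR adjusted p = 0.247, 0.441 and 0.117). Among 5 myogenic factors tested Mafa (1.94), Nfia (0.70) and Mef2d (0.69) were higher and Mef2c, which also serves cortical neurons, was lower (-0.96, 100.02 ± 12.8 against 194 ± 19.6 CPM, edgeR adjusted p = 1.37e-11), while the other did not pass. In the atrophy and growth list 4 of 5 were higher, with the nemaline myopathy gene Klhl40 at 2.56, and Foxo3 was lower (-0.21). The growth kinase Mtor was the weakest of the 4 (0.07, edgeR adjusted p = 0.052) and did not pass under the first and second of these alternatives or without cortex replicate 9 (edgeR adjusted p = 0.505, 0.166 and 0.101).

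The clock genes differed least: Nr1d1 was higher (0.31) and Cry2 lower (-0.26), while Per1, Dbp and Tef did not pass (0.06, 0.06 and -0.05, edgeR adjusted p from 0.102 to 0.296). Of 3 dystrophy genes tested Sgca was higher by 3.11 and Dag1 by 0.36, and the other did not pass. Matrix genes Sparc (1.55), Col1a1 (1.34) and Col4a1 (0.71) and the endothelial Egfl7 (1.48) were higher too, and the vesicular glutamate transporter Slc17a7 was lower (-0.77, SE 0.11). Of 3 widely expressed genes tested Eef2 (0.89) and Actb (0.28) were higher in muscle, and the other did not pass.

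Sites that were marked in muscle alone do not enter that test, since a library without a peak has no deposited reads, so peak calls were compared over the 28532 sites present in at least 3 libraries of a tissue. A site can enter this comparison through 1 tissue alone, so counts in the domains are read beside those over all sites. By Fisher's exact test with Benjamini-Hochberg adjustment (FDR under 0.1), 20.8% of sites were called in more gastrocnemius and 12.3% in more cortex libraries. In the domains 1029 of 3168 sites (32.5%) were called more often in muscle, in 390 domains, and 92 (2.9%) more often in cortex, in 83. Without the peaks of lowest score the counts were 521 and 42, given without the share over all sites under that setting. H3K4me3 peaks covered a median of 82.6 Mb of the autosomes per gastrocnemius library and 57.7 Mb per cortex library, and the part this plays in the counts was not tested. Peaks in all 10 muscles and no cortex were found at 328 sites in domains (10.4%, against 5.7% of all sites compared) and the reverse at 25 (0.789%, against 4.07%). Of the 328 sites, 41 lay within 1 kb of a TSS. They included sites at Jph2 (32.8 kb wide), Mylk4 (31.8 kb), Alpk3, a heart and muscle kinase-like protein (26.2 kb), Hoxa11 with Hoxa13 (26.6 kb), Pln, the brake of the calcium pump (19.8 kb), Tnni2 with Syt8 (16.2 kb), Nrap (16 kb), the ankyrin Ankrd23 (14.2 kb) and Rapsn, which clusters acetylcholine receptors (4.0 kb). These examples were chosen after their values were seen.

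H3K27me3 was called more often over the domains in the cortex than in the muscle. No gastrocnemius library had an H3K27me3 peak in 218 domains (43.6%, against 62.2% of the other regions, which are narrower), and all 10 had one in 108 (21.6%, against 9.71%). All 9 cortexes had one in 208 domains (41.6%, against 14.9%) and none in 162 (32.4%, against 60.6%). H3K27me3 covered over 20% of the domain in 23 domains in muscle and in 55 in the cortex, counts that were not taken for the other regions. In peak calls over 32653 sites, 12% were called more often in muscle and 26.8% less often. Of the 824 sites in domains, 74 (8.98%) were called more often in muscle and 382 (46.4%), in 192 domains, less often. Libraries without an S-number in their names gave 45 in place of 74, given without the share over all sites in those libraries.

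At 112 sites in 72 domains, all 9 cortexes and no muscle had an H3K27me3 peak (13.6% of the sites in domains, against 3.49% of all sites compared), and the reverse held at 14 sites (1.7%, against 1.69%). Of these 112, 53 lay within 1 kb of a TSS. Examples chosen after their values were seen are the helix-loop-helix factor Atoh8 (62.4 kb), Cped1 (62.2 kb), Tnnt3 with Lsp1 and Prr33 (56.0 kb), the chloride channel protein Clic5 (32.0 kb), Nfatc1 (25 kb), myoglobin Mb (23.8 kb), the hypoxia factor Epas1 (18.4 kb), Mir143 and Mir145a with Carmn (18 kb) and Scn4a (17.4 kb). Gastrocnemius libraries ranged from 2994110 to 18236388 H3K27me3 peak reads, against 3901516 to 6347106 in the cortex, and the part of this range in the calls was not tested.

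The 5 domains with the highest muscle to cortex ratio of H3K27ac had between 33.5% and 100% of their length under H3K27me3 in the cortex, beside a median of 2.37% over the 500 domains. The Hoxc domain was under H3K27me3 over 100% of its length in the cortex (868, 1060 and 1252 RPM in the lowest, median and highest library) and over 39.6% in the muscle (31.5, 188 and 375 RPM). The Hoxa domain was covered over 98.6% and 36.7%. Jph2 was covered over 81.2% in the cortex and 6.12% in the muscle, and the Scn4a and Cped1 domains over 54.4% and 33.5% in the cortex and 0% in the muscle. The Tnni2 and Tnnt3 domain, where the H3K27ac ratio was 3.78, was covered over 48.3% and 1.10%. The domain of Gata5 (rank 327), named after its values were seen because it also holds Mir1a-1 and Mir133a-2, microRNA genes of striated muscle, was covered over 94.0% in the cortex and 26.5% in the muscle, with H3K27ac of 238 to 476 RPM in muscle and 28.7 to 36.8 RPM in cortex.

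Some domains carried H3K27me3 in muscle as well. Among the 108 domains with a peak in all 10 muscles, the greatest covered length was at Sfi1 and Eif4enif1 (rank 66), then at Fli1, an ETS factor of blood vessels (rank 478), at Tcf3 and Ndufs7 (rank 31), at Ablim1 (rank 36) and at Hoxc. H3K27me3 at Fli1 covered 52.3% of the domain in the muscle (118, 176 and 295 RPM) and 74.1% in the cortex (301, 328 and 380 RPM), while H3K27ac there was 192 to 367 RPM and 43.4 to 76.5 RPM. The tissues did not overlap in either mark. At Ablim1, an actin-binding LIM protein, H3K27me3 was higher in the muscle, with 99.5, 178 and 366 RPM against 10.7, 39.1 and 66.3 RPM.

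Of the 500 domains, 5 had H3K27me3 over 20 RPM per kb in both tissues, a limit set after seeing the values, whereas the other 495 reached at most 1.93 in muscle and 9.67 in cortex. These 5 were the domains of ranks 10, 66 (Sfi1 and Eif4enif1), 205, 297 (Prnp) and 395, and all 3 marks were high in them. The domain of rank 10 (chr2:98666201-98667400) was only 1.2 kb long, lay 1198544 bp from the nearest TSS, that of Lrrc4c, and held 904 RPM per kb of H3K27ac, 3035 of H3K4me3 and 4771 of H3K27me3 in muscle. Ranks 205, at Mir101c, and 395 were 95.8% and 83.8% repeat-masked and rank 10 was 79.8% masked, against a median of 23.1% over the 500 domains, while Sfi1 (34.7%) and Prnp (25.8%) were nearer the median. Without these 5 the H3K4me3 share was 17.03% in muscle and 12.7% in cortex, and the H3K27me3 share 0.870% ± 0.0914 and 2.27% ± 0.116, so the muscle's H3K27me3 in the domains lay mostly in them and the difference between tissues stayed at -1.40 points (exact permutation p = 1.08e-05).

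The Prnp domain (rank 297, chr2:131899201-131918000) holds the prion protein gene Prnp and the Prn locus, and it was the most variable of all domains (34.6%, with 9.61-fold between the highest and lowest muscle). H3K27ac in its lowest muscle was 56.7 RPM, while the other 9 muscles lay between 316.0 and 544 RPM. In the cortex of the same mouse H3K27ac was 62.3 RPM against 285 to 388 RPM in the other 8. The mouse was low in the other marks as well, with H3K4me3 of 61.6 RPM against 347 to 482 RPM in the muscle and 106 RPM against 463 to 597 RPM in the cortex. It had no H3K27me3 peak there in either tissue, where the others had 325 to 605 RPM and 349.6 to 538 RPM. Its values were 13.8% (H3K27ac) and 14.6% (H3K4me3) of the median of the other muscles, and 19.01% and 19.97% in the cortex. No other domain of the 500 had a mouse under 25% of the others' median H3K27ac in both tissues. Like the others this mouse is labelled PSAPP. Its genotype was not checked, and why it differs was not tested.

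**Figure D5:**
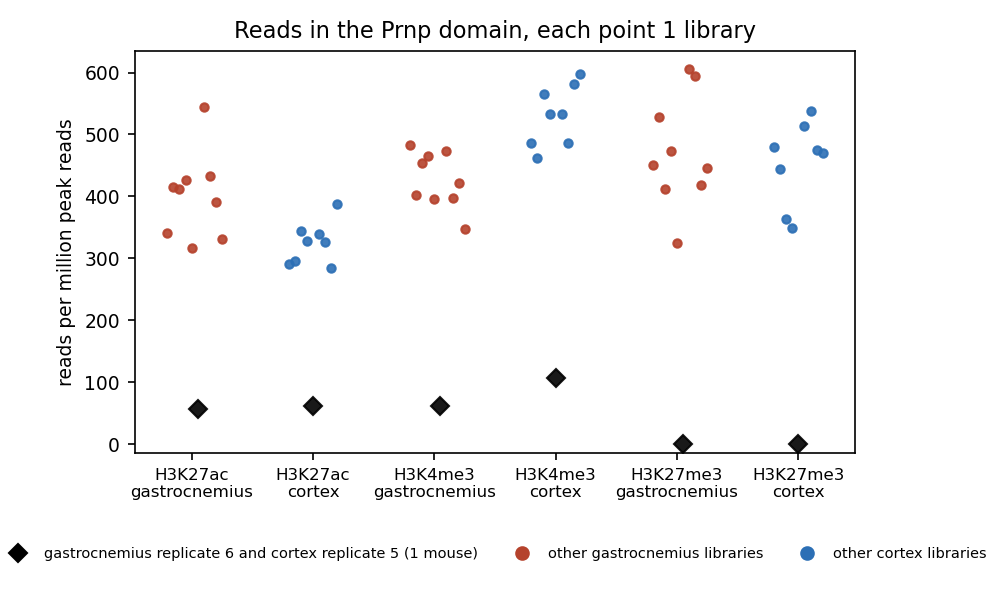
Reads per 1000000 peak reads in the Prnp domain (y axis) for each mark and tissue (x axis), 1 point per library. The diamonds are gastrocnemius replicate 6 and cortex replicate 5, from 1 mouse, which lie between 0 and 106 in all 6 groups, while the other libraries lie between 285 and 605.

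Leaving this mouse out changed no call on the domains as a whole. The share differences became 4.503 points for H3K4me3 and -1.30 points for H3K27me3 (exact permutation p = 4.11e-05 and 8.23e-05). The edgeR counts became 841 sites higher and 376 lower in muscle, and the peak-call counts 920 and 85 for H3K4me3 and 65 and 369 for H3K27me3. The shares over all sites without this mouse are not given here.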

How the data were processed

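ChIP-seq of H3K4me3, H3K27ac and H3K27me3 was deposited as 1 peak table per library. Per the study's methods the authors mapped to mm10 by BWA, discarded unmapped and duplicate reads through SAMtools, and then called peaks in 200 bp bins with epic2. The deposited unit is the read count per peak (not normalized), beside the epic2 score, which was used for 1 alternative only. Reads outside peaks were not analysed here.

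A peak's reads were split by overlap with a domain. Shares were compared by exact permutation of tissue labels, H3K4me3 read counts with edgeR 4.0.16 (quasi-likelihood test, TMM), and peak calls with Fisher's exact test, with Benjamini-Hochberg adjustment over all sites and an FDR of 0.1. On simulated counts for 13611 sites, 97 of 100 changes of 1.5-fold and 100 of 100 of 2-fold were recovered, with 16 unchanged sites called. Only these sites were changed, all upward in gastrocnemius, whereas in the data 39% of sites were higher and 40.7% lower. The simulation therefore does not cover a difference as wide as that between the tissues. Genes, promoters and microRNAs came from RefSeq (GRCm38). Samples were grouped by the mark and tissue in their labels.

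The named domains were the 15 strongest, the 5 strongest without a TSS, the 5 most and least variable, the 5 with the highest and lowest muscle to cortex ratio, ranks 499 to 502, the 5 H3K4me3 sites with the largest change each way, of the domains with H3K27me3 in all 10 muscles the 5 with the greatest covered length, and the genes of 21 lists. Some of these sites and genes are not reported here. Members and lists were chosen with earlier results of these data known. Animal codes in the labels tie 9 mice across tissues. Deviations of a mouse's H3K4me3 libraries from their tissue means correlated between -0.144 and 0.168. Peak counts and p-values cover the spread between mice of 1 strain.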

Additional observations from a re-analysis of the deposited data

Results flagged for a closer look

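Of 53 groups of libraries examined, 9 had a library far from the others by Dixon's criterion, which chance alone flags in about 1 in 20 groups. The groups were not chosen blind to the values. The Prnp domain was examined in all 6 mark and tissue groups, and other domains in gastrocnemius H3K27ac alone. The most variable domains were also among those examined, so the 9 cannot be set against that rate. Of these, 6 are the 6 groups of the Prnp domain, all from the same mouse: H3K27ac was 56.7 RPM in gastrocnemius replicate 6 and 62.3 RPM in cortex replicate 5, H3K4me3 was 61.6 and 106 RPM, and H3K27me3 was 0 and 0 RPM, while the lowest of the other libraries in any of these groups had 284.7 RPM. Gastrocnemius replicate 6 was also the lowest at the Notch1 and Egfl7 domain (rank 9), with 926 RPM of H3K27ac against 1071 to 1228 RPM in the others. Cortex replicate 9 had the highest share of H3K27ac reads in the domains, 17.7% against 15.5% to 16.4%, and its H3K27ac library had 3903965 peak reads, the fewest of that mark. The cortex library numbered 9 for H3K4me3 had the lowest share of that mark, 13.3% against 13.5% to 13.7%.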

How the results depend on the processing

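Pairing the tissues of 9 mice (replicate block) gave share differences of 4.70 points for H3K4me3 and -1.22 points for H3K27me3 (exact sign-flip p = 0.00391 for both, the smallest that 512 flips allow) and 855 H3K4me3 sites higher and 369 lower in muscle (edgeR), and it changed no other call among those fitted with it. Leaving out 1 library at a time gave share differences of 4.51 to 4.77 and -1.42 to -1.22 points, 844 to 868 and 360 to 377 sites in read counts, 738 to 988 and 66 to 88 in H3K4me3 peak calls, 57 to 76 and 330 to 373 in H3K27me3 peak calls, and 462 to 497 of the 500 domains. Among libraries with an S-number, a split added after seeing the data, the shares differed by 4.59 and -1.78 points with p of 0.0667, the smallest possible. Taking the 500 regions with the most reads per kb shared 99 domains with the main set and gave differences of 2.83 points for H3K4me3 and -0.50 points for H3K27me3 (exact permutation p = 1.08e-05 and 0.1001). With the 250 strongest domains, counts fell with the number of domains to 522 and 216 in read counts, 606 and 60 in H3K4me3 calls and 49 and 218 in H3K27me3 calls. Testing sites with a peak in at least 9 libraries, with an uncalled peak as 0 reads, gave 1480 sites higher in muscle (64.4% of 2297, with 21.9% lower), but a site can pass that filter through 1 tissue alone, which fixes its direction, so this count supports nothing. Dropping the peaks with the lowest scores gave 521 and 42 H3K4me3 calls, and libraries without an S-number gave 45 H3K27me3 calls higher in muscle. The cause was not tested for these. Counts of sites in this paragraph stand without the share over all sites under the same setting, so they show only how the counts moved. Median in place of mean, peaks in at least 8 libraries, and merging nearby peaks kept 491, 500 and 442 domains. The 61 named sites gave 1747 results under 29 settings, since 22 of them lie outside the 250 strongest domains. Of these results 1740 kept their call and 7, at Pdk2, Lpin1 and Mtor, lost it, 1 of them (Mtor, edgeR adjusted p = 0.101) without cortex replicate 9. The deposited tables hold reads in called peaks only, so a mark below the calling limit reads as 0, and the part of depth in the H3K27me3 calls was not tested.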

Other observations

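Of 1100 autosomal microRNA genes in the annotation, 153 had a TSS in a domain (13.9%), beside 8.997% of all genes, and the microRNA gene clusters of ranks 94 and 158 had H3K27ac in both tissues. At rank 94 it was 533 to 624 RPM in muscle and 368 to 498 RPM in cortex, with every muscle above every cortex, and at rank 158 it was 423 to 524 RPM and 344 to 449 RPM, with overlap. The let-7b and let-7c domain at Ppara (rank 38) had 679 to 846 RPM in muscle and 641 to 773 RPM in cortex, and a 21.0 kb H3K4me3 site at these let-7 genes was called in all 10 muscles and in no cortex. At let-7g (rank 481) the order was reversed, with 261 to 321 RPM in muscle and 293 to 359 RPM in cortex, and the tissues overlapped.

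Genes with a TSS in a gastrocnemius domain were shared with the cortex domains in part. Of the 2246, 819 (36.5%) also had a TSS in one of the 500 cortex domains, which held 1495 of 24963 autosomal genes (5.99%). The cortex domains were narrower, with a median width of 74.5 kb.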
